A study of Mus musculus with 4 samples.

Results

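The 32 genes described here are the protein-coding mouse genes named Obox, Nlrp, Oosp or Tcl1b with a number, on the autosomes of mm10. The rule reads gene symbols, among 20661 autosomal protein-coding genes, and was set with earlier results of these data known. They comprise 6 Obox genes, 18 Nlrp genes, 3 Oosp genes and 5 Tcl1b genes. The Nlrp genes were divided into 12 oocyte genes (numbers 2, 4, 5, 9 and 14) and 6 inflammasome genes (numbers 1, 3, 6, 10 and 12). The silencing histone mark H3K9me3 was mapped by chromatin immunoprecipitation and sequencing in primary muscle stem cells that were sorted magnetically and grown in culture. The first sample was treated with 4-hydroxytamoxifen and is called TAM below (label genotype Setdb1lox/lox;Pax7GakaCreERT3). The second was treated with ethanol and is the control (label genotype Setdb1lox/lox;Pax7GakaCreERT2). The final digit of the genotype differs from sample to sample in the labels, and both cultures carry floxed Setdb1, an H3K9 methyltransferase gene, with an inducible Cre at Pax7. Treatment lasted 72 h, and how completely Setdb1 was deleted is not measured by a peak list. Each condition had 1 H3K9me3 library, so every difference below lacks a replicate check and carries no p-value. The 2 input libraries were not analysed here.

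Obox genes encode homeodomain proteins of oocytes and early embryos, where they take part in switching on the embryo's own genome. Nlrp proteins carry a nucleotide-binding domain and leucine-rich repeats. One branch of the family is made in oocytes and stored for the embryo, and includes Nlrp5 (MATER), a part of the subcortical maternal complex. The other branch senses infection and damage, and Nlrp1 and Nlrp3 assemble inflammasomes that activate Casp1. Oosp genes encode proteins secreted by the oocyte, and Tcl1b genes are relatives of the Tcl1 oncogene that are active in oocytes and early embryos. H3K9me3 often lies over such clustered, tissue-restricted gene families outside the germ line.

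Many of these genes arose by duplication, and their upstream sequences show how alike the copies are. The sequences below are the 250 bases before the annotated start of 4 Obox genes, taken from RefSeq (GRCm38.p6, the assembly of mm10), plus strand, and printed 5′ to 3′. They are shown because these genes have similar upstream DNA, while coverage of the genes with 5 kb on both sides differed widely. No peak of either list lay in the printed Obox stretches themselves. Capitals mark the longest run of letters, 37 bases, that all 4 share.
Obox7 (chr7:14659458-14659707): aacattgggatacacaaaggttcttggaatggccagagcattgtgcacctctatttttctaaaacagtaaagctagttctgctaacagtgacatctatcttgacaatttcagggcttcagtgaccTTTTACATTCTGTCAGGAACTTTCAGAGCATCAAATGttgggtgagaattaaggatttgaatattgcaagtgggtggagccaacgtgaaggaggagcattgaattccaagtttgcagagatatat
Obox5 (chr7:15750120-15750369): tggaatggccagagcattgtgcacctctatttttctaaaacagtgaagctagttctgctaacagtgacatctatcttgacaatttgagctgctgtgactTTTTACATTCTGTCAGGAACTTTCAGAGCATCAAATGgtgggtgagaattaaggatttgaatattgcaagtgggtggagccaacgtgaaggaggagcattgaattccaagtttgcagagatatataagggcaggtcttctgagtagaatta
Obox1 (chr7:15547007-15547256): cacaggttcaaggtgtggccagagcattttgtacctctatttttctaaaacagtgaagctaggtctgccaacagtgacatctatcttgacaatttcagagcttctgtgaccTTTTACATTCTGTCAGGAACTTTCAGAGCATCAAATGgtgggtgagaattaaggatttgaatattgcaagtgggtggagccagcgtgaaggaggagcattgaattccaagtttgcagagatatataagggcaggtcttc
Obox2 (chr7:15388601-15388850): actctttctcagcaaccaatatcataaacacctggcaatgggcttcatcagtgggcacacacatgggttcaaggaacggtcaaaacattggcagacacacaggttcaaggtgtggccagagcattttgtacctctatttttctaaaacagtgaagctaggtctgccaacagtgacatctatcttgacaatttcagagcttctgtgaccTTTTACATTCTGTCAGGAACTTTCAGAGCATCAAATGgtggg
The run was found in 4 of 20084 promoter windows of autosomal protein-coding genes (0.0199%), both strands searched, and those 4 are these genes. In local alignment Obox1 and Obox5 matched at 226 of 235 aligned positions (96.2%), and Obox1 and Obox2 at 153 of 153 (100%). Nlrp9a and Nlrp9c are a further pair of similar copies, for which the capitals mark their longest shared run, 106 bases. Nlrp9a is on the plus strand and Nlrp9c on the minus strand.
Nlrp9a (chr7:26534773-26535022): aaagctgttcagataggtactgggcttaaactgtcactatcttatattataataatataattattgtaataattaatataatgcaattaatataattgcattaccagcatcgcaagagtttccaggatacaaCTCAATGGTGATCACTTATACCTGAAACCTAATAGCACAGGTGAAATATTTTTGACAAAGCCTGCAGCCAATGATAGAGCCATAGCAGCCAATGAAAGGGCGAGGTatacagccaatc
Nlrp9c (chr7:26403701-26403950): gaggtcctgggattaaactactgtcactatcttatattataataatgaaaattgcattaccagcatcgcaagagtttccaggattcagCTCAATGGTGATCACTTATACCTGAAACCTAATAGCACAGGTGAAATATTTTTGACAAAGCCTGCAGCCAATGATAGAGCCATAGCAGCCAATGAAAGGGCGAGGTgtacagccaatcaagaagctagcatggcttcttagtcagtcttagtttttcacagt
This pair matched at 197 of 239 aligned positions (82.4%). How reads that fit several copies were placed is not given in the sources used here, so coverage of a single copy in these families is uncertain.

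A gene window, the gene plus 5 kb on both sides, was scored by the percent of its bases lying in peaks. Peaks met 23 of the 32 windows in the TAM list and 21 in the control list. Among all autosomal protein-coding genes the shares met were 30.8% in the TAM list and 30.2% in the control list, and on chromosome 7 they were 35.8% and 34%. Only the TAM list met 3 members (Tcl1b4, Tcl1b5 and Oosp3) and only the control list met 1 (Nlrp12), against 6.25% and 5.61% of autosomal and 6.11% and 4.33% of chromosome 7 protein-coding genes. The mean window coverage of the members was 12% in the TAM list and 7.29% in the control list, and their medians were 7.11% and 3.93%. Over all autosomal protein-coding genes the means were 3.01% and 3.04%, with medians of 0% in both lists. Of the members, 18 were covered more in the TAM list, 6 less and 8 equally, and all 8 of these had no peak in either list. Over all autosomal protein-coding genes 18.9% were covered more in the TAM list and 17.5% less, and on chromosome 7 the shares were 23.7% and 16.4%. These shares include the many genes without a peak in either list. Of the 7528 autosomal protein-coding genes covered in either list, 3911 were covered more in the TAM list and 3616 less. The 32 windows lie at 20 loci more than 100 kb apart, and neighbours share surroundings, so the genes are not independent. A window coverage of 20% or more was reached by 7 members in the TAM list and by 2 in the control list, Obox5 and Nlrp4a. The autosomal shares were 5.41% and 5.45%, and those of chromosome 7 were 12.2% and 10.2%.

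A difference of 10 percentage points or more separated the lists at 7 members, all covered more in the TAM list. Such a gain was found at 2.44% of autosomal protein-coding genes and such a loss, found at none of the members, at 2.67%, or at 2.25% without chromosome 6, whose control cover was the larger by far (7.73 Mb TAM, 15.3 Mb control). The 7 were Nlrp9a, Obox7, Nlrp4f, Nlrp14, Nlrp1b, Nlrp4e and Nlrp9c. Chromosome 7, which holds 19 of the members, was covered over 9.86 Mb in the TAM list and 8.00 Mb in the control list, a TAM-to-control ratio of 1.23. On that chromosome 7.24% of protein-coding genes gained and 3.99% lost 10 points or more, and the mean difference was 0.86 points against 4.68 points for the members. When both lists were limited to the same covered length on every chromosome, 3 members gained 10 points or more (Nlrp9a, Nlrp4f and Nlrp14) and 1 lost as much (Obox5), and the mean difference was 2.05 points. Under that setting 2.24% of autosomal genes gained and 2.57% lost as much, against 5.27% and 5.52% on chromosome 7. When peaks below a −log10 q of 2, the caller's value, were left out, 1 member gained (Nlrp14) and 1 lost (Obox5). The mean difference turned to -0.77 points. Under that setting 0.755% of autosomal genes gained and 1.37% lost as much, against 1.92% and 2.27% on chromosome 7. The order of windows met turned as well, to 12 in the TAM list and 15 in the control list. It also turned over gene bodies (18 and 21) and with 20 kb flanks (28 and 29). Shares of all genes met were not computed under these settings, so whether this turn is particular to the members is not known.

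**Figure D1:**
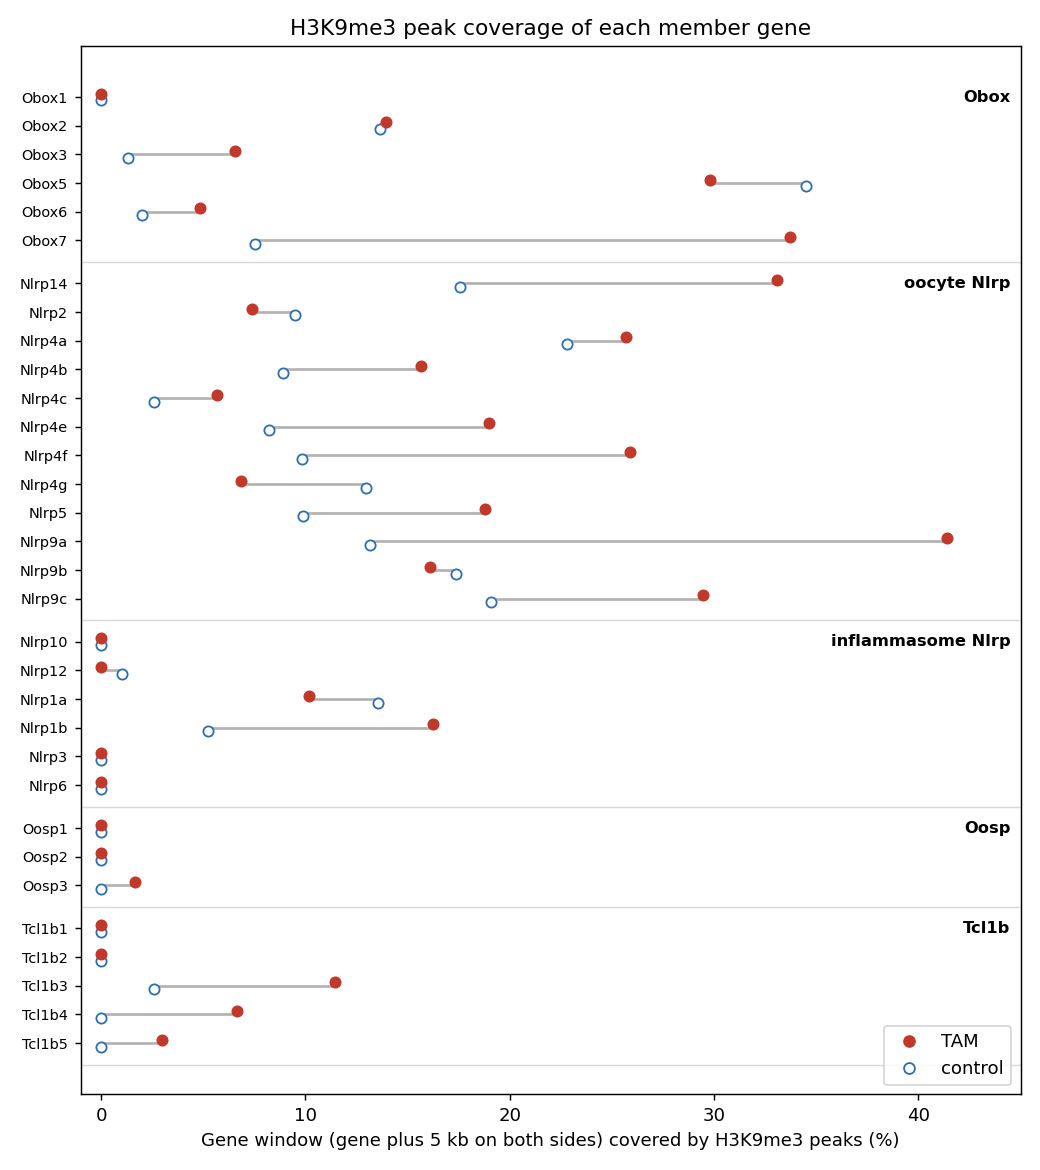
Percent of each member's window covered by H3K9me3 peaks (horizontal axis) in the TAM list (filled red) and the control list (open blue), grouped by family and Nlrp branch, 1 library per list. Nlrp9a (41.4% and 13.2%) and Obox7 (33.7% and 7.53%) lie farthest apart, and 8 genes have both points at 0.

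**Figure D2:**
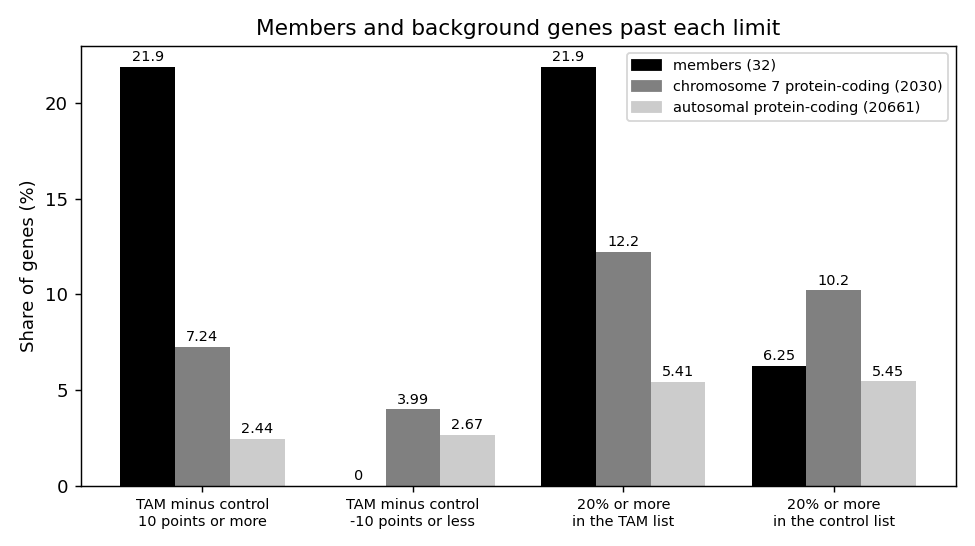
Share of genes (vertical axis, percent) past each limit for the 32 members (black), chromosome 7 protein-coding genes (dark grey) and autosomal protein-coding genes (light grey). Members past the 10-point gain made up 21.9%, against 7.24% on chromosome 7 and 2.44% over the autosomes, while members at 20% or more in the control list made up 6.25%, near the 5.45% of all genes.

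Obox coverage ranged from 0% to 33.7% of the window in the TAM list and from 0% to 34.5% in the control list. The window of Obox7 (gene at chr7:14659708-14665996) was covered at 33.7% in the TAM list, against 7.53% in the control list, with 5 and 2 peaks. Obox5 (chr7:15750370-15759274) had 29.8% in the TAM list and 34.5% in the control list. These were the most covered Obox windows, and only Obox7 differed by more than 10 points. Inside the Obox5 gene itself coverage was 10.2% in the TAM list and 53.6% in the control list, because a control peak of 4559 bp lay in the gene and a TAM peak of 5929 bp lay past its right end. Obox2 was met over 14% of its window in the TAM list and 13.6% in the control list, where a TAM peak of 1884 bp overlapped a control peak of 2685 bp over 98.7% of its length. Obox3 had 6.55% and 1.32%, and Obox6 had 4.83% and 1.98%. Obox1, whose upstream sequence is so close to those of Obox5 and Obox2, had no peak in its window in either list. The Obox mean was 14.8% in the TAM list and 9.83% in the control list, a difference of 4.99 points that turned to -0.58 at equal covered length per chromosome, -5.27 at −log10 q of 2 or more and -1.54 over the gene bodies alone.

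The Obox genes sit in an array that also holds 45 Obox pseudogenes, copies annotated without a protein product. Over 1322 kb of chromosome 7 the array was covered at 8.98% in the TAM list and 5.45% in the control list, with 96 and 67 peaks, and 2.45% lay in both. Coverage was concentrated at 2 places. Between 750 and 950 kb from the start of the array, which includes Obox2, the 50 kb bins held 16.0% to 31.5% in the TAM list and 5.03% to 17.5% in the control list. Between 1200 and 1300 kb, around Obox5, they held 28% and 30.2% in the TAM list and 14.6% and 20.4% in the control list. From 600 to 750 kb the bins had 0% in the TAM list and between 0% and 1.14% in the control list. Windows of the 45 pseudogenes were covered at a mean of 3.96% in the TAM list and 3.26% in the control list, lower than the mean of the 6 protein-coding Obox genes in each list.

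**Figure D3:**
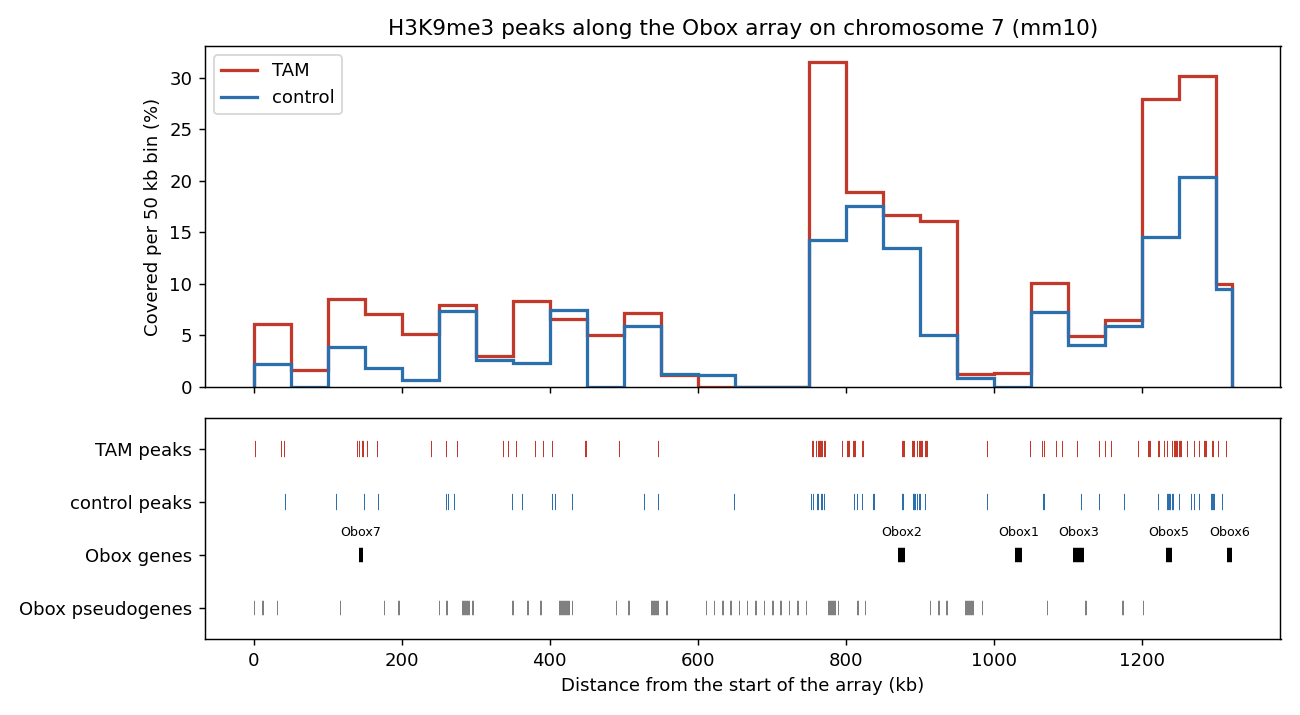
Coverage per 50 kb bin (upper panel, percent, TAM red, control blue) and the peaks, Obox genes and Obox pseudogenes (lower panel) against distance from the start of the array in kb. The TAM list is highest between 750 and 950 kb and between 1200 and 1300 kb, the control list between 750 and 900 kb and between 1200 and 1300 kb, and both are near 0 from 600 to 750 kb.

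Oocyte Nlrp genes were the most covered branch, and peaks met all 12 windows in both lists. Their mean coverage was 20.4% in the TAM list and 12.7% in the control list, with medians of 18.9% and 11.4%. The values ranged from 5.66% to 41.4% in the TAM list and from 2.58% to 22.8% in the control list. Of the 12 genes, 9 were covered more in the TAM list and 3 less. The chromosome 7 shares were 23.7% and 16.4%, but 59.9% of those genes had no peak in either list, unlike all 12 here. In counts, 482 chromosome 7 protein-coding genes were covered more in the TAM list and 332 less. At equal covered length per chromosome 7 of the 12 were covered more in the TAM list, and with peaks below a −log10 q of 2 left out 5 were. At that −log10 q limit Nlrp4a, Nlrp4b, Nlrp4e, Nlrp9a and Nlrp9b were covered less, and Nlrp2 and Nlrp4g had no peak left. Shares of all genes covered more were not computed under either setting. Windows of these genes are long, with a median of 57.4 kb against 27.5 kb for all autosomal protein-coding genes, which makes a meeting with a peak more likely but does not enter the percent covered.

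The Nlrp9 genes, which are active in oocytes, differed widely. Nlrp9a (chr7:26535023-26574148) was covered at 41.4% in the TAM list, against 13.2% in the control list, a difference of 28.2 points. Its window held 9 TAM peaks and 7 control peaks, and 2 TAM peaks of 5705 and 5230 bp inside the gene gave the largest parts of the cover. The TAM peak with the highest −log10 q of all member windows, 3.28, lay before the left end of this gene at chr7:26529621-26530301, and no base of it was in a control peak. Nlrp9c (chr7:26364691-26403700) had 29.5% in the TAM list and 19.1% in the control list. Nlrp9b, also known as a sensor of virus in the gut lining, had 16.1% and 17.4%. A control peak of 3811 bp in Nlrp9b had the highest −log10 q of the control list at any member, 3.12, and 94.9% of it was also in TAM peaks. At −log10 q of 2 or more the difference at Nlrp9a turned to -0.71 points, while at equal covered length per chromosome it stayed at 28.2 points.

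The Nlrp4 genes lie at several places on chromosome 7, with Nlrp4f on chromosome 13 and Nlrp4g on chromosome 9. Nlrp4f (chr13:65177111-65205716) was covered at 25.9% in the TAM list and 9.84% in the control list. Nlrp4e (chr7:23301192-23362277) had 19% and 8.23%, and at −log10 q of 2 or more its difference turned from 10.8 to -3.72 points. Nlrp4a, between Nlrp9c and Nlrp9a, had 25.7% in the TAM list and 22.8% in the control list, the highest control value among Nlrp genes. Nlrp4b had 15.7% and 8.90%, and Nlrp4c 5.66% and 2.58%. Nlrp4g had 6.83% of its window covered in the TAM list and 13.0% in the control list, while within the gene itself the values were 15.2% and 10.5%.

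The 3 remaining oocyte genes are Nlrp14, Nlrp5 and Nlrp2. Nlrp14 (chr7:107113455-107198103), which acts in oocytes and in the male germ line, was covered at 33.1% in the TAM list and 17.5% in the control list, with 24 and 14 peaks. With peaks below a −log10 q of 2 left out, it was the only member whose gain reached 10 points, at 10.8. Nlrp5 (chr7:23385889-23441923), needed in the egg for development past the earliest cleavages, had 18.8% and 9.86%. A pseudogene copy of Nlrp5 at the Obox array, Nlrp5-ps, had 2.93% in the TAM list and 1.07% in the control list. Nlrp2, another maternal gene, had 7.39% in the TAM list and 9.50% in the control list. Only 1.25% of the Nlrp2 window was in peaks of both lists.

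**Figure D4:**
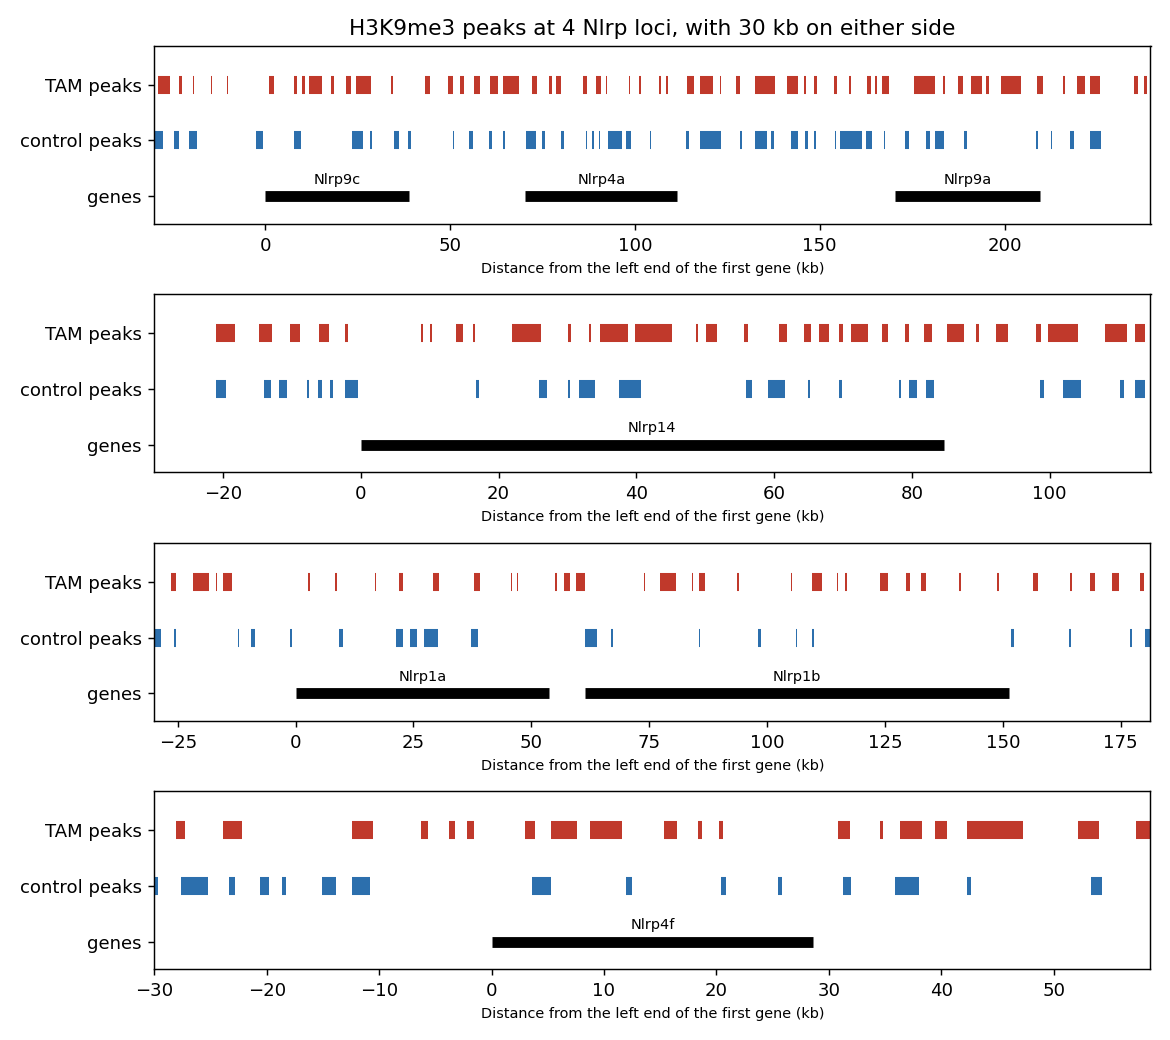
Peaks of the TAM list (red) and the control list (blue) at 4 Nlrp loci against distance from the left end of the first gene in kb, with genes in black and flanking bases on either side. Peaks continue beyond the ends of every gene, and TAM peaks are more numerous than control peaks in the windows of Nlrp14 (24 and 14), Nlrp1b (17 and 7) and Nlrp4f (9 and 5).

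Peaks met 2 of the 6 inflammasome Nlrp windows in the TAM list and 3 in the control list, shares of 33.3% and 50% beside 30.8% and 30.2% of autosomal genes. Their means, 4.41% and 3.30%, were close to the autosomal 3.01% and 3.04%. Nlrp3, the best-studied inflammasome sensor, and Nlrp6 and Nlrp10 had none in either list. Nlrp12, a regulator of inflammation in myeloid cells, had 0% in the TAM list and 1.02% in the control list, from 1 peak of 418 bp. Nlrp1a and Nlrp1b, neighbouring copies on chromosome 11 that respond to toxin and protease activity, had the most. Nlrp1b (chr11:71152574-71242514) was covered at 16.3% in the TAM list and 5.25% in the control list, with 17 and 7 peaks. Nlrp1a (chr11:71091197-71144969) had 10.2% in the TAM list and 13.5% in the control list.

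Oocyte Nlrp genes exceeded inflammasome Nlrp genes in both lists. The difference of the means was 16.0 points in the TAM list (20.4% and 4.41%) and 9.35 points in the control list (12.7% and 3.30%). The ranges overlapped, because Nlrp1a and Nlrp1b lay among the oocyte genes, while the other 4 inflammasome genes lay below all 12 oocyte genes in each list. On chromosome 7 alone, with 10 oocyte and 3 inflammasome genes, the differences were 21.2 and 12.6 points. The direction was the same in all alternatives tried, down to 0.05 and 0.39 points at −log10 q of 3 or more. At that limit 1 peak of each list remained in the member windows. TAM minus control averaged 7.76 points for the oocyte genes and 1.11 for the inflammasome genes, and whether these differ was not tested.

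**Figure D5:**
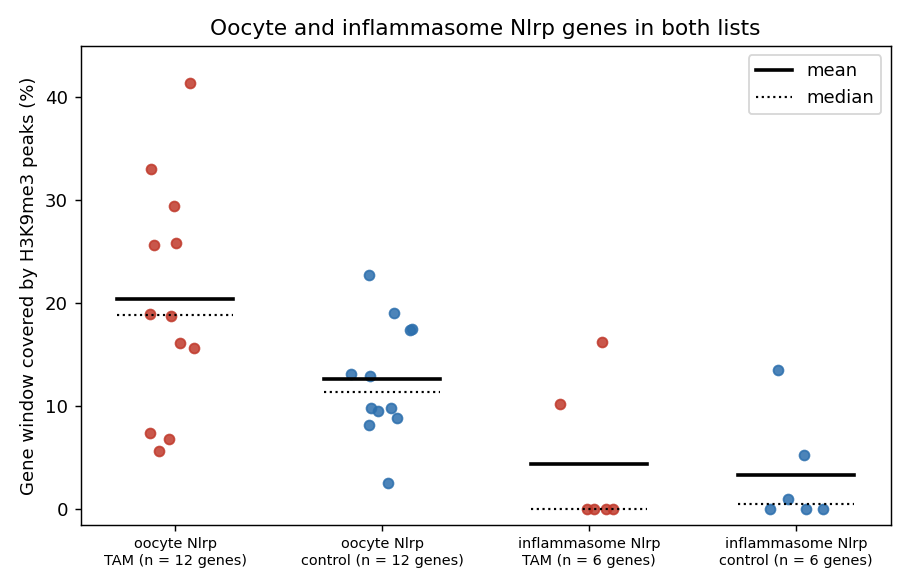
Percent of the gene window covered (vertical axis) for each oocyte Nlrp gene (12) and inflammasome Nlrp gene (6) in the TAM list (red) and the control list (blue), with thick lines for means and dotted lines for medians. Only Nlrp1a and Nlrp1b of the inflammasome genes reach the range of the oocyte genes.

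Oosp genes carried little of the mark, with means of 0.55% in the TAM list and 0% in the control list. The Tcl1b means were 4.21% and 0.52%, beside 3.01% and 3.04% over autosomal protein-coding genes. Oosp1 and Oosp2, on chromosome 19, had no peak in either list, and Oosp3 had 1.66% in the TAM list, from 1 peak of 411 bp, and 0% in the control list. All 5 Tcl1b genes lie within 60.0 kb of chromosome 12. Tcl1b1 and Tcl1b2 had no peak in either list. Tcl1b3 had 11.4% in the TAM list and 2.6% in the control list, Tcl1b4 6.63% and 0%, and Tcl1b5 2.98% and 0%. Those TAM values came from 2 peaks of 1014 and 968 bp between the genes, each of which fell in the windows of 2 neighbours, and none of the Tcl1b gene bodies was covered in the TAM list. The Tcl1b mean difference of 3.69 points therefore turned to -1.71 over gene bodies alone. Their −log10 q values, 1.24 and 1.16, were low for the list, whose median was 1.48.

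Peaks lay close to the starts of oocyte Nlrp genes and met 2 of their 13 promoter windows, both in the control list. RefSeq promoter windows, from 250 bases before to 50 after a start, were matched for 27 of the 32 members, with 32 windows. In the TAM list 1 window was met, at an inner start of Nlrp1b, and in the control list 2 were met, at Nlrp9c and at the second start of Nlrp4a. The shares of all promoter windows met were 1.91% in the TAM list and 1.92% in the control list. Within 5 kb of a start, a TAM peak was found for 11 of 13 oocyte Nlrp starts and a control peak for 12. The 13 starts belong to 10 genes. For all autosomal starts the shares were 13.5% in the TAM list and 12.8% in the control list, and for chromosome 7 starts 22.7% and 20.7%. The median distance from an oocyte Nlrp start to the nearest peak was 3.22 kb in the TAM list and 2.53 kb in the control list. The medians were 40.0 and 44.4 kb for all starts and 33.8 and 39.2 kb for chromosome 7 starts. Oosp1 and Oosp2 starts were 24.8 and 55.3 kb from the nearest TAM peak and 125 and 94.6 kb from the nearest control peak.

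Member promoters were poor in CG dinucleotides. The median was 2 per window of 300 bases, with a range of 0 to 9, against a median of 14 over all promoter windows. Windows with 2 or fewer made up 18 of 32 (56.2%), and 17.5% of all windows. The motif CANNTG, the E-box that oocyte factors such as Figla bind, was searched on both strands and was in 23 of the 25 windows of Obox, oocyte Nlrp, Oosp and Tcl1b genes, and in 68.7% of all windows. TAATTG, a site of the oocyte homeodomain factor Nobox, was in 2 of these 25 windows and in 6.86% of all windows. TAATTA and TATAAA, searched likewise, were in 8% and 12% of the 25 windows and in 4.47% and 12.7% of all windows. Among the 7 inflammasome Nlrp windows the E-box was in 71.4%. The 25 windows belong to 22 genes, several of them similar copies, so they are not independent. The E-box is its own reverse complement and does not overlap TAATTG in its letters. These are matches of letters and not binding sites.

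Coverage of several members continued into the surroundings. The span of Nlrp14 was covered at 32.8% in the TAM list and 16.7% in the control list. The 100 kb to its left had 25.4% and 22%, and the 100 kb to its right 31.1% and 24.5%. The olfactory receptor gene Olfr716, inside the span of Nlrp14, had 44.8% in the TAM list and 45.7% in the control list. Olfr715b, to the left of Nlrp14, had 30.2% and 30.8%. Rbmxl2, an RNA-binding protein gene of the male germ line to the right, had 43.3% and 9.13%. The span from Nlrp9c to Nlrp9a had 34.7% and 23.5%, its left flank 13.8% and 12.7%, and its right flank 24.8% and 19.8%. Nearby, the pheromone receptor gene Vmn1r185 had 46.6% in the TAM list and 38.9% in the control list, and the cytochrome gene Cyp2b23 had 33.1% and 1.82%. Around Nlrp4f, the nearest covered neighbour, the olfactory receptor gene Olfr466, had 23.4% in the TAM list and 36.8% in the control list, while Mfsd14b had 25.9% and 18.2% and the zinc finger gene Zfp369 had 48.0% and 47.4%. Beside Nlrp4c, the pheromone receptor gene Vmn1r65 had 32.8% in the TAM list and 67.3% in the control list. Of 24 protein-coding neighbours within 100 kb covered at 20% or more in either list, 10 gained 10 points or more, 2 lost as much (Olfr466 and Vmn1r65) and 12 did neither. These neighbours were picked for their coverage, so shares of all genes are no like comparison. A share of equally covered genes elsewhere was not computed. Nlrp10, free of peaks itself, has a left flank with 21.3% and 10.1%, where Olfr517 had 31.7% and Olfr516 37.0% in the TAM list, against 0% for both in the control list. The flanks of Nlrp6 had 0% in the TAM list and at most 0.46% in the control list.

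Other genes of the oocyte programme were much less covered. Among 18 maternal-effect genes the means were 0.76% in the TAM list and 0.56% in the control list, and Btg4, which removes maternal RNA, had the most, 6.06% and 3.18%. The 8 oocyte transcription factor genes had 0.78% and 0.89%, and none reached 5%. Of 7 zona pellucida and growth factor genes, Kit, the receptor of stem cell factor, had 12.5% in the TAM list and 7.15% in the control list, and 5 had no peak in either list. The 7 homeobox relatives of Obox on the autosomes had means of 11.6% and 6.74%, near the 12% and 7.29% of all members. Their medians were 4.19% and 0%. Among them Duxf3, an activator of early embryonic genes on chromosome 10, had 59.9% in the TAM list and 45.2% in the control list. Crx, a photoreceptor factor beside the Obox array, and its neighbour Crxos had 5.61% and 9.0% in the TAM list and 0% each in the control list. Tcl1 had 2.86% and 0%.

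Partners of the inflammasome Nlrp proteins carried little of the mark. The 14 partner genes, which include Pycard, Casp1 and Gsdmd, had means of 0.87% in the TAM list and 0.83% in the control list, and Naip6 had the most, 6.30% and 0%. The 6 other NLR genes, such as Nod2 and Nlrx1, had 0.13% and 0.03%. None of these 20 genes differed by 10 points or more. The 8 marker genes of muscle stem cells and muscle, among them Pax7, Myf5, Myod1 and Des, were free of peaks in both lists, which shows the mark and not expression.

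The peaks at the members were ordinary in height. In the member windows lay 165 TAM peaks and 115 control peaks, with a median fold enrichment, the authors' value, of 2.64 and 2.6, each within its own list. The medians over all autosomal peaks were 2.59 in the TAM list and 2.57 in the control list. Median peak width was 863 bp in the TAM list and 708 bp in the control list, against 863 and 912 bp over the autosomes. A −log10 q of 2 or more was reached by 21 TAM peaks (12.7%) and 23 control peaks (20.0%), close to the 11.7% and 19% over the autosomes, and 1 peak in each list reached 3. In both lists 61 of the peaks overlapped a peak of the other list by at least 1 bp, which is 37.0% of the TAM peaks and 53.0% of the control peaks. Over all autosomal peaks those shares were 51.5% and 53.3%, and over chromosome 7 they were 48.0% and 58.0%. Sequencing depth is unknown, and its part in these differences was not tested.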

How the data were processed

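H3K9me3 libraries from 1 TAM and 1 control culture were analysed from 2 deposited lists of broad peaks without column headers. The submitters' processing notes name the aligner BWA 0.7.17-r1188, the peak caller MACS2, the annotation tool ChIPseeker 1.30.3, and mm10. Not given in the sources used here are peak calling settings, use of the input and any pooling. For each peak the deposited columns hold the authors' fold enrichment (a linear ratio), −log10 p and −log10 q, and a deposited score that is a rescaled −log10 q and was not used. The peak names carry replicate 2 and the labels replicate 1, so lists were assigned by condition.

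Autosomal peaks numbered 108595 (TAM) and 103258 (control). Read depth is unknown. Gene positions and promoter windows came from RefSeq GRCm38.p6. Coverage was the percent of a window's bases in merged peaks, computed in Python 3.11.15 with pandas 2.3.3 and numpy 2.4.6, and was tested on simulated data. Upstream sequences were aligned locally with Biopython 1.88 (match 1, mismatch -1, gap opening -2, gap extension -0.5). Figures used matplotlib 3.10.9.

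With 1 library per condition no test was made. Counts were set beside all autosomal and chromosome 7 protein-coding genes. Every member is named, and of other lists the genes covered at 5% or more, up to 4 per list. Of neighbours within 100 kb at most the 3 nearest at 20% or more per locus are named, and only at some loci. Tcl1, the 1 gene of its list, and genes named only as examples of a list are given besides. The members and lists were chosen with earlier results of these data known. Alternatives varied the peak threshold, the number of peaks, peak joining, the window and the chromosomes. Equal covered length per chromosome and joined loci were added after seeing the data.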

Additional observations from a re-analysis of the deposited data

How the results depend on the processing

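No paired analysis was possible because each condition had 1 library, and leaving out a replicate could not be run. Limiting both lists to the same number of peaks moved none of the summary values. Shares of all genes met by a peak were not computed for the alternatives below. At −log10 q of 2 or more, 12 windows were met in the TAM list and 15 in the control list, 1 member gained and 1 lost 10 points, and the mean differences (TAM minus control) were -0.77 points over all members, -5.27 for Obox, 0.39 for Nlrp and 0 for Oosp and Tcl1b. The oocyte minus inflammasome Nlrp difference was then 2.08 points in the TAM list and 1.74 in the control list. At −log10 q of 3 or more, 1 window was met in each list, 0 gained, the mean differences were -0.13 over all members, 0 for Obox, Oosp and Tcl1b and -0.23 for Nlrp, and the branches differed by 0.047 points in the TAM list and 0.39 in the control list. With peaks joined within 5 kb, 11 gained, 1 lost, the mean differences were 11.0 over all, 19.8 for Obox and 11.8 for Nlrp, and the branches differed by 35.3 and 26.0 points. Under that setting 4.42% of autosomal protein-coding genes gained and 3.7% lost as much, against 10.5% and 5.17% on chromosome 7. Over gene bodies 7 members gained and 1 lost 10 points. Of autosomal protein-coding genes 2.27% gained and 1.98% lost as much, against 5.96% and 2.71% on chromosome 7. The mean differences were then 3.02 over all, -1.54 for Obox, 0 for Oosp and -1.71 for Tcl1b. With 20 kb flanks 6 members gained and 0 lost 10 points, and the mean difference for Oosp was 0.25. Under that setting 1.51% of autosomal protein-coding genes gained and 1.57% lost as much, against 4.53% and 1.77% on chromosome 7. At equal covered length per chromosome, chosen after seeing the data, 3 gained, 1 lost, and the mean differences were 2.05 over all, -0.58 for Obox, 3.46 for Nlrp and 1.02 for Tcl1b. With the windows of a locus joined, also added later, 4 of 20 loci gained and Tcl1b had 2.30. No share over other loci was computed for that setting. Single-gene differences had the opposite sign in 23 of 224 alternatives, at 14 genes, 11 of which differed by less than 10 points as reported. At −log10 q of 2 or more these were Obox7 (-7.53), Nlrp4e (-3.72), Nlrp9a (-0.71), Nlrp4b (-2.29), Nlrp4a (-0.23) and Nlrp1a (0.53). Over gene bodies 6 genes turned, among them Tcl1b3 (-8.56), Nlrp4a (-6.75) and Nlrp4g (4.68), with joined peaks 5, among them Obox5 (20.3) and Nlrp4c (-6.33), and 3 each with 20 kb flanks and at equal covered length. The cause of these shifts was not tested. Read depth is unknown, so a window without a peak may hold the mark below detection.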
